A study of Caenorhabditis elegans with 5 samples.

Results

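LIN-42 peaks in the promoters of protein-coding genes were taken from the authors' 3 ChIP-seq peak lists. A peak was a member when it overlapped, by at least 1 bp, a region that the authors' annotated region list assigns to a coding gene promoter. By this rule 385 of 4654 peaks were members, 136 of 946 in LIN-42::GFP replicate 1, 137 of 2580 in LIN-42::GFP replicate 2 and 112 of 1128 with the antibody against endogenous LIN-42. A site was a replicate 1 peak that lay mainly in such a region and shared 1 bp or more with a peak of replicate 2. There were 126 sites, of 395 shared peaks in all, and they were closest to 105 genes. Of the other 10 member peaks of replicate 1, 9 overlapped no replicate 2 peak and 1 was assigned to a region downstream of a gene. Over all replicate 1 peaks 41.8% were shared, but the annotated regions derive from both LIN-42::GFP replicates, so the sharing of the members is not a result.

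All 5 samples carry the strain name HML214 and a GFP tag in their labels, and come from whole animals grown at 20°C, collected late in the L4 larval stage according to the methods. LIN-42::GFP replicates 1 and 2 were precipitated with an antibody against GFP. A single library was precipitated with a rabbit antibody against LIN-42 itself, and it is called endogenous LIN-42 here although the labels give it the same tagged strain. The other 2 samples are input DNA. ChIP from animals that lack LIN-42 or the GFP tag was not analysed here.

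LIN-42 is the C. elegans relative of PERIOD, a repressor in the circadian clock of flies and mammals, and it times larval development and the molts. PERIOD proteins do not bind DNA by a domain of their own in those animals but are held at genes by partner factors. ChIP-seq records where a protein, or a complex that holds it, is crosslinked to DNA: fragments pile up over the site and the summit marks the highest point of the pile. A promoter is the stretch before a start site of transcription, where many such complexes assemble. A peak near a start site does not show that the gene is regulated, and the closest gene need not be the one that a distant site serves. Whole animals were used, so a small pile can come from weak binding everywhere or from strong binding in few cells, and these cannot be told apart.

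The libraries were shallow once a single tag per position had been kept: between 38236 and 122089 tags remained. The smallest peaks of the LIN-42::GFP lists hold 4 tags and those of the endogenous list 5. Member peaks held 7.79% of the kept tags in replicate 1 (95% Wilson interval 7.52% to 8.06%), 6.90% in replicate 2 and 4.87% in the endogenous library. They made up 14.4% of the peaks of replicate 1 but 30.4% of the tags in its peaks. For replicate 2 these shares were 5.31% and 16.3%, and with endogenous LIN-42 9.93% and 30.9%. The annotated regions are shared by both LIN-42::GFP replicates, and shared peaks in general held more tags, with a replicate 1 median of 11 tags over all 395 and of 6 tags over all 946 peaks, so these shares are set by the choice of members and are not a result. Medians of tags were compared only within a list, since the libraries differ in depth. Tags set beside each other from different lists are raw counts, not scaled for depth.

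The sites lay from 79 to 13979 bp from an annotated start site, with a median of 1611 bp and quartiles of 637.2 and 3076 bp. Within 2000 bp lay 74 of the 126 sites, so the annotation's promoter class also holds sites far from any start site. The authors define a promoter as the 2000 bp upstream of a gene, and why the class holds sites beyond that was not settled. The closest class, 1000 bp or less, held 47 sites at 46 genes. Above 1000 and up to 2000 bp lay 27 sites at 26 genes, and farther than 2000 bp lay 52 sites at 41 genes. The values next to the limits were 826 bp at W10C6.2 and 879 bp at Y54F10AM.7 inside 1000 bp, and 1092 bp at nsy-7 and 1175 bp at wrt-6 outside it. At the second limit they were 1884 bp at mvk-1 and 1914 bp at Y54G2A.16 inside, and 2035 bp at Y58A7A.2 and 2075 bp at Y73F4A.1 outside. Each site has the distance of its annotated region, so neighbouring sites in a region share it. A separate signed distance to the closest gene was negative at 12 sites. Their closest genes were C54F6.16, ZK218.8, fbxc-36, sto-4, pha-4, pck-2, fog-1, ssl-1, egl-47, gale-1, tlk-1 and dkf-2. Its size exceeded the start-site distance, for example -3264 against 496 bp at pha-4 and -30300 against 6584 bp at dkf-2. Whether these sites lie before the start of the named gene is not settled.

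The 10 sites nearest to a start site are named first. Their presence in both LIN-42::GFP lists follows from the definition of a site. At F39E9.14 the peak was 79 bp from the start site and held 5 tags in replicate 1, 21 in replicate 2 and 30 in the endogenous list (ce10, chromosome II, 3290645 to 3290789), and where 3 tag numbers stand together for a site they follow this order of lists. At F31A3.3, 82 bp away, the peaks held 4, 8 and 9 tags, and their summits lay within 1 bp of each other. At efl-2, which encodes an E2F-like transcription factor of the cell cycle, the site was 106 bp away and held 13, 13 and 14 tags. Of these 3 sites, F31A3.3 in replicate 1 was at the smallest number of tags that the list holds.

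At arx-7, a subunit of the Arp2/3 complex that nucleates branched actin, the peak lay 186 bp from the start site with 5, 4 and 7 tags. Its summits in the 3 lists fell within 2 bp. K10H10.1, named vnut-1 in RefSeq as a vesicular nucleotide transporter, had 20, 12 and 17 tags at 192 bp. Of the 10 nearest sites, the one with most tags in replicate 1 belonged to F35F10.10, a pseudogene in RefSeq. It held 41, 40 and 37 tags at 158 bp (chromosome V). The others of these 10 were Y71F9AR.2 (133 bp), C54F6.16 (135 bp), Y110A2AL.9 (191 bp) and ZK218.8 (229 bp). All 10 overlapped an endogenous LIN-42 peak, near the 41 of 47 (87.2%) of all sites at 1000 bp or less.

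Sites beyond 1000 bp had higher median tags and longer peaks when all sites were counted. Median tags in replicate 1 were 11 at 1000 bp or less (exact binomial 95% interval of the median 8 to 16), 17 above 1000 and up to 2000 bp (11 to 26) and 16 beyond (11 to 21). In replicate 2 the medians were 13, 19 and 16.5 tags, and with endogenous LIN-42 they were 16, 29 and 27. The intervals of neighbouring classes overlapped in replicates 1 and 2, and in the endogenous list that of the nearest class (13 to 20) did not reach that of the farthest (21 to 47). Median peak lengths in replicate 1 were 142, 257 and 239.5 bp from the nearest class to the farthest. In replicate 2 they were 153, 191 and 304.5 bp, and with endogenous LIN-42 they were 123, 263 and 344 bp. No list showed an unbroken order with distance in both measures, but the nearest class was lowest in both measures in all 3 lists.

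The distance classes also differed in how crowded their sites were. A site was called clustered when another peak of replicate 1 lay within 2000 bp, and isolated otherwise. Clustered sites made up 47 of the 126 (37.3%, against 30.4% of all shared peaks). They were 9 of the 47 nearest sites (19.1%), 13 of the 27 in the middle class (48.1%) and 25 of the 52 farthest (48.1%). The 47 clustered sites were closest to only 27 genes, whereas the 79 isolated sites were closest to 79 genes.

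**Figure D1:**
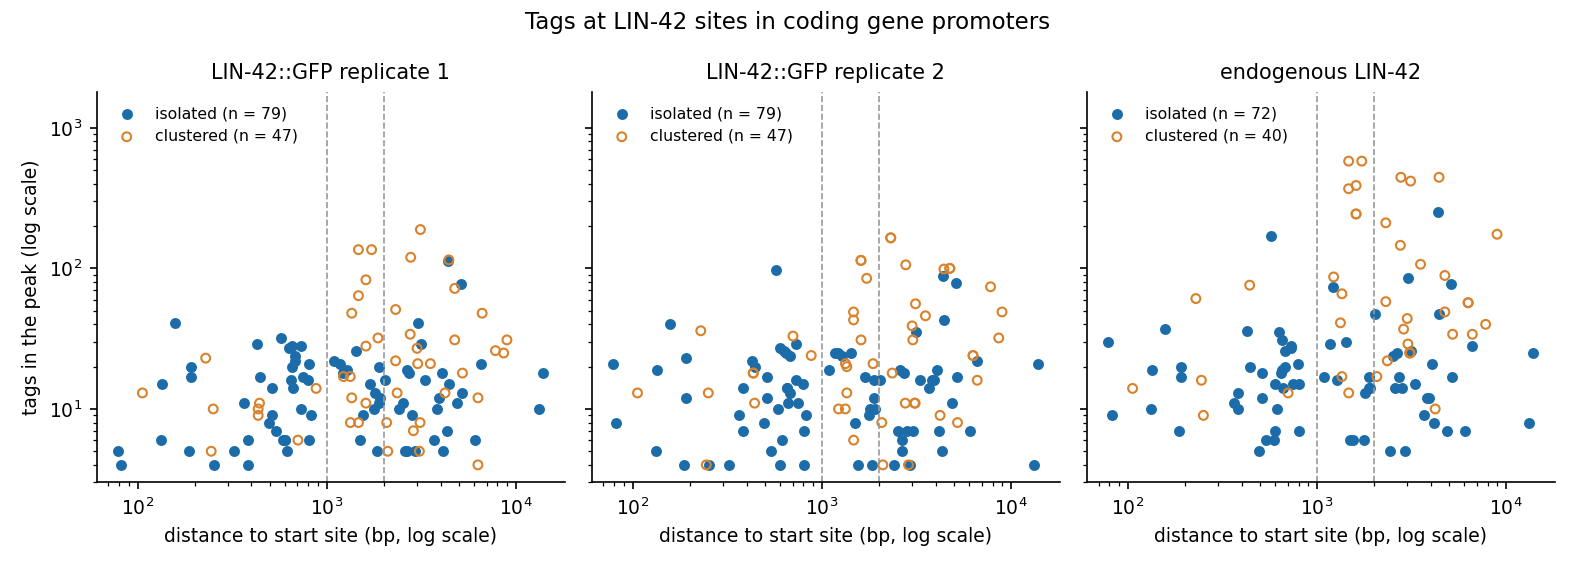
Tags in each peak (vertical, log scale) against the distance to the start site in bp (horizontal, log scale) for the 126 sites in LIN-42::GFP replicates 1 and 2 and the 112 of them with an endogenous LIN-42 peak. Filled points are isolated sites, open points are clustered sites and dashed lines mark 1000 and 2000 bp; in the endogenous panel most points over 100 tags are open and lie beyond 1000 bp.

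Among isolated sites no difference between distance classes was resolved. Median tags in replicate 1 were 12.5 in the nearest class (6 to 17), 14 in the middle (9 to 21) and 12 in the farthest (9 to 18). Replicate 2 gave 12.5, 14 and 16 tags, and endogenous LIN-42 gave 17, 15 and 17. Median lengths in replicate 1 were 135, 149 and 149 bp, in replicate 2 144.5, 150 and 160 bp, and with endogenous LIN-42 113, 175 and 119 bp. The intervals of the 3 classes overlapped for each of these measures. The nearest class still had the shortest median length in each list, and replicate 2 tags still rose with distance. With 14 isolated sites in the middle class, a difference could go unseen.

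Clustered sites had longer peaks in each list and more tags in the endogenous list. Their median tags were 18 in replicate 1, 24 in replicate 2 and 57 in the endogenous list, against 13, 14 and 16.5 at isolated sites. Their median lengths were 386, 627 and 759.5 bp, against 141, 148 and 118 bp at isolated sites. The intervals of the tag medians overlapped in replicate 1 (12 to 27 against 10 to 16), met at 16 in replicate 2 (16 to 36 against 10 to 16) and did not overlap in the endogenous list (34 to 89 against 14 to 19). The intervals of the length medians did not overlap in any list, for example 283 to 575 bp at clustered and 133 to 153 bp at isolated sites of replicate 1. Tags are counted over the whole peak, and the deposited fold enrichment at the summit was lower at clustered sites. Its medians there were 20.9, 49.9 and 11.6 in replicate 1, replicate 2 and the endogenous list, against 194, 69.0 and 61.4 at isolated sites. The intervals of these medians overlapped in replicate 2 only. The endogenous list names no input control, so the background under its fold enrichment may differ from that of the LIN-42::GFP lists. How far neighbouring peaks enter that background was not tested. Of the clustered sites 18 had a replicate 1 peak of 500 bp or more, against 8 of the isolated sites. A peak of one list can span several peaks of another in such stretches, so the 126 sites rest on 120 different replicate 2 peaks and the 112 with endogenous support on 106 endogenous peaks. Where several peaks of another list overlapped a site, the one with the largest overlap gave the tags and the summit. This concerned replicate 2 at 8 sites, all 8 clustered, and the endogenous list at 3 sites.

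**Figure D2:**
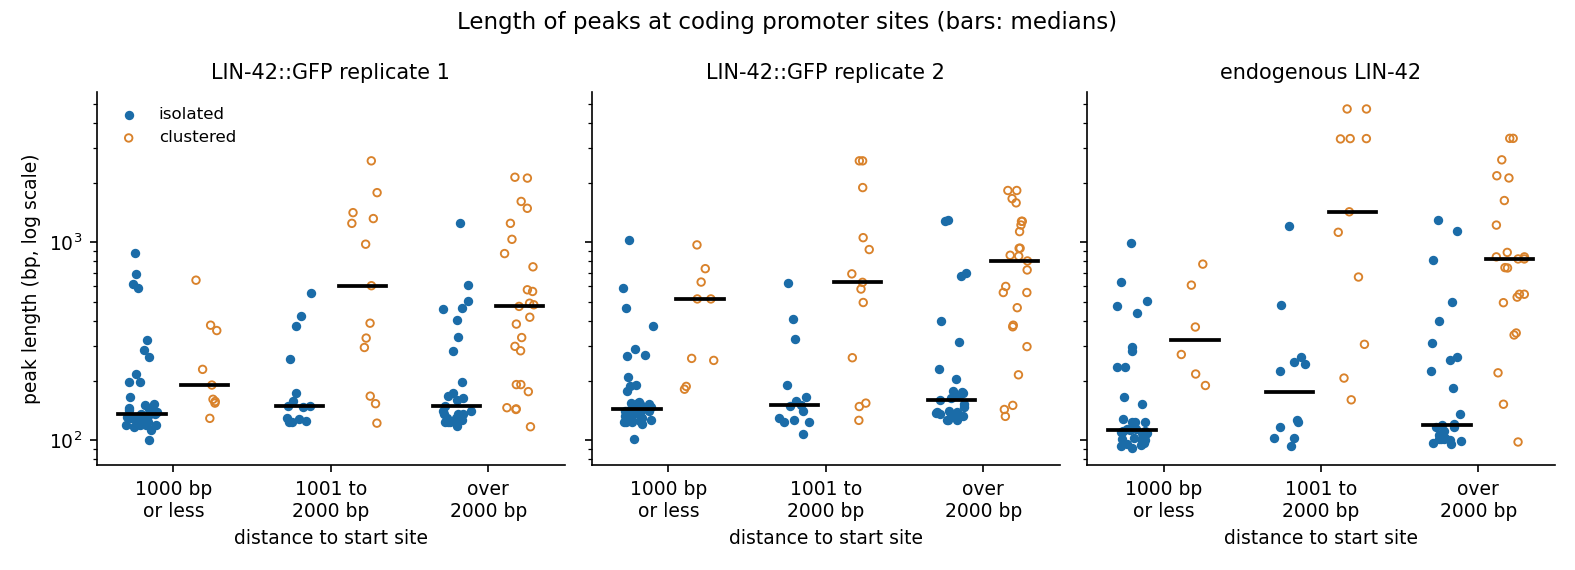
Peak length in bp (vertical, log scale) by distance class for isolated (filled) and clustered (open) coding promoter sites in the 3 peak lists, with black bars at the medians. Isolated medians stay between 113 and 175 bp in all classes and lists, while clustered medians run from 190 to 1424 bp.

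Summit positions were also further apart at clustered sites. Longer peaks leave more room between summits, and the part that peak length and the matching of peaks have in the offsets was not tested. The summits of the LIN-42::GFP replicates lay within 20 bp of each other at 74 of the 126 sites (58.7%, against 63.0% of all shared peaks). At isolated sites this was so for 60 of 79 (75.9%, against 78.5% of all isolated shared peaks), and at clustered sites for 14 of 47 (29.8%). The median offset was 6 bp at isolated sites (5 to 11) and 43 bp at clustered sites (23 to 123). Both shares at coding promoters were thus near the background. By distance, the median offset between replicates was 11 bp in the nearest class, 26 bp in the middle and 13 bp in the farthest, with 31, 12 and 31 sites within 20 bp. For isolated sites alone it was 5.5, 8.5 and 6 bp.

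Where the endogenous list also had a peak, all 3 summits fell within 20 bp of each other at 55 of 72 isolated sites (76.4%, interval 65.4% to 84.7%), against 179 of 232 isolated shared peaks in all (77.2%). At clustered sites this held for 6 of 40 (15%, interval 7.06% to 29.1%), against 19.5% of all clustered shared peaks. These shares too were near those over all shared peaks. The replicate 1 summit and the endogenous summit were a median of 4 bp apart at isolated sites and 78 bp apart at clustered sites.

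The site of lgc-42, whose product is an ion channel opened by a ligand, is an example of an isolated site. It held 24, 24 and 26 tags, in peaks of 133, 153 and 112 bp. The summit of replicate 2 lay 5 bp from that of replicate 1, and the endogenous summit lay at the same base as that of replicate 1. The 4 sites of oac-58, an O-acyltransferase gene, are an example of a run. They spread over 4828 bp of chromosome IV, 3091 to 6637 bp from the start site, and rest on 3 replicate 2 peaks and 2 endogenous peaks. Replicate 1 held 5, 8, 18 and 48 tags at these sites, the last in a peak of 2107 bp that spans 2 peaks of replicate 2. Its summit lay 448 bp from that of the first of these, which overlaps it most, and 1 bp from that of the second, and it lay 1894 bp from the endogenous summit.

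**Figure D3:**
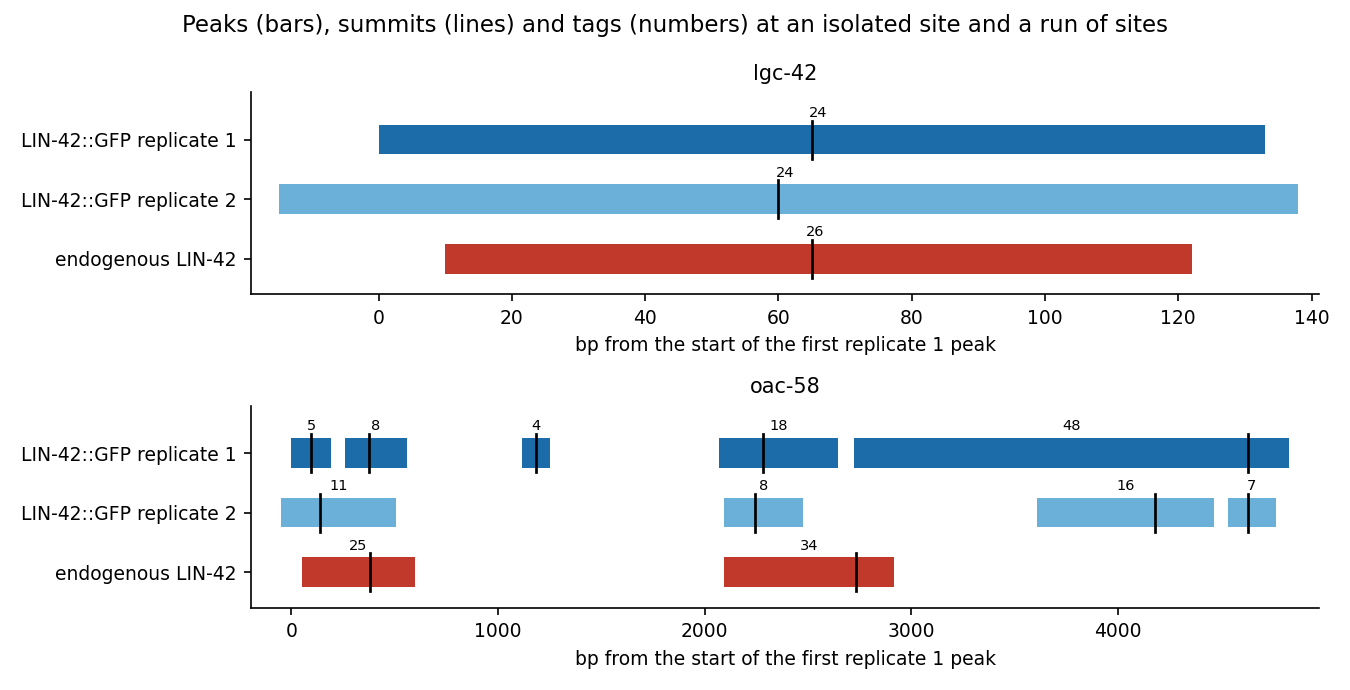
Peaks of the 3 lists (bars, with summits as black lines and tags as numbers) at the isolated site of lgc-42 and along the run of sites at oac-58, against the distance in bp from the start of the first replicate 1 peak. The 3 lgc-42 summits fall within 5 bp, while at oac-58 the borders and summits of the broad peaks differ between lists.

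The largest summit offsets between replicates were at clustered sites. They were 1977 bp at a site of Y34F4.1, 976 bp at fbxa-221, 891 bp at Y7A5A.11, 841 bp at Y102F5A.1 and 597 bp at T04B8.2. At Y34F4.1, named clc-23 in RefSeq, a single replicate 2 peak of 2575 bp and 114 tags covered both replicate 1 peaks, which held 11 and 28 tags. The sites at fbxa-221 and Y7A5A.11 each spanned 2 replicate 2 peaks, of which the one with the larger overlap was compared.

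An endogenous LIN-42 peak overlapped 112 of the 126 sites (88.9%, interval 82.2% to 93.3%), against 78.2% of all shared peaks, a background that includes these sites. Among shared peaks outside coding promoters the share was 73.2% (67.6% to 78.2%). In coding introns 85 of 96 shared peaks had endogenous support (88.5%), and downstream of coding genes 70 of 104 had it (67.3%, 57.8% to 75.6%). The coding promoter share was therefore close to that of introns and above that of downstream regions, and its interval did not overlap that of downstream regions. For isolated sites alone the interval of coding promoters (82.8% to 95.6%) did overlap that of downstream regions (66.1% to 86.3%). No test was run, because neighbouring sites share a locus and each list is a single library, and the intervals cover counting error only. The header of the endogenous list names no input control, although the study's methods state that every list was called against inputs. What this does to the shares with endogenous support was not tested.

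Endogenous support was then counted in each distance class. It was found at 41 of 47 sites at 1000 bp or less (87.2%, 74.8% to 94.0%), at 23 of 27 above 1000 and up to 2000 bp (85.2%, 67.5% to 94.1%) and at 48 of 52 beyond (92.3%, 81.8% to 97.0%). For isolated sites it was 35 of 38, 12 of 14 and 25 of 27. The intervals of the 3 classes overlapped widely, so a difference was not detectable with these numbers. The site of rin-1, the farthest of all at 13979 bp, held 18, 21 and 25 tags in replicates 1 and 2 and the endogenous list, with summits within 13 bp. That of hmr-1, the classical cadherin of cell adhesion, lay at 13288 bp and held 10, 4 and 8 tags with summits within 7 bp.

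**Figure D4:**
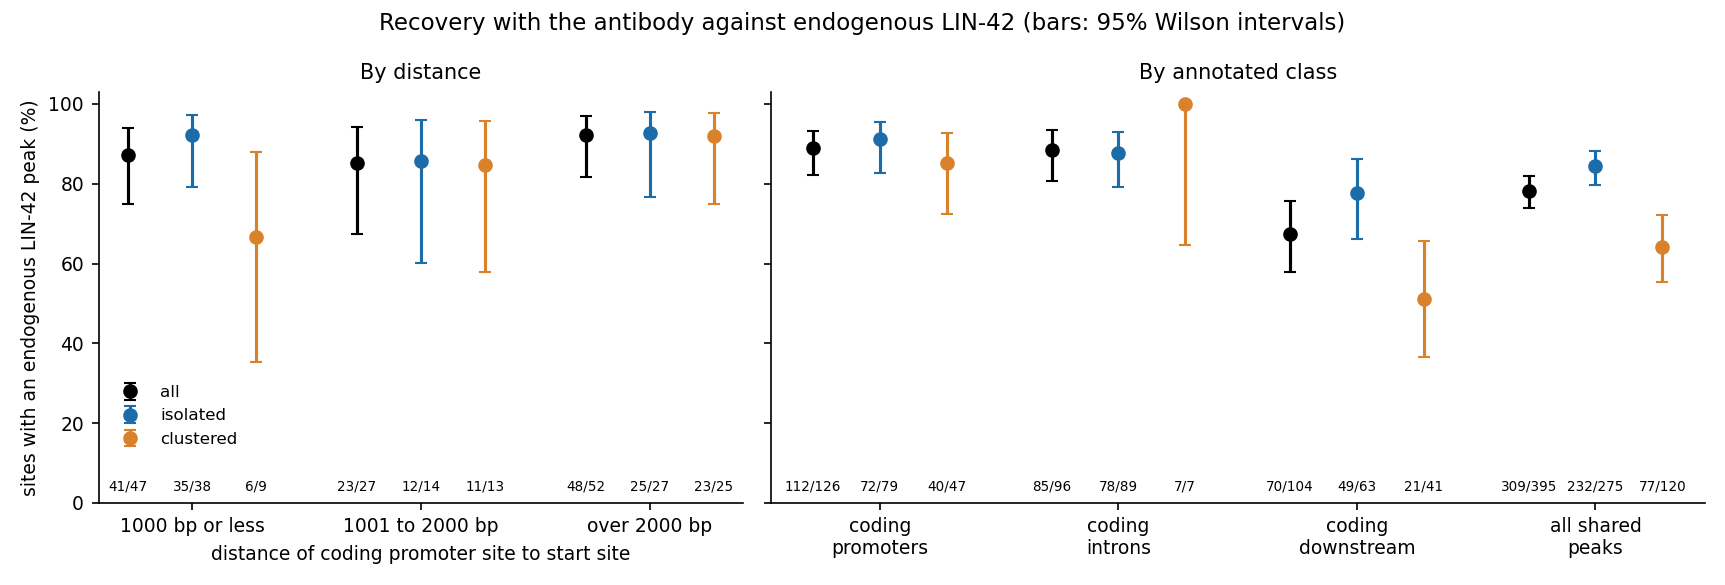
Percentage of sites that overlap an endogenous LIN-42 peak, with 95% Wilson intervals as bars and counts along the bottom, for coding promoter sites by distance to the start site (left) and for coding promoters, coding introns, coding downstream regions and all shared peaks (right). The 3 distance classes lie between 85.2% and 92.3%; clustered sites reach 85.1% at coding promoters, 100% (7 of 7) in coding introns, 51.2% downstream of coding genes and 64.2% over all shared peaks.

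Support was also counted by crowding. At isolated sites 72 of 79 had endogenous support (91.1%, 82.8% to 95.6%), against 84.4% of all isolated shared peaks and 81.6% (75.6% to 86.4%) of those outside coding promoters. At clustered sites 40 of 47 had it (85.1%, 72.3% to 92.6%), against 37 of 73 outside coding promoters (50.7%, 39.5% to 61.8%). The intervals overlapped for isolated sites and did not for clustered sites. Outside coding promoters the share varied by class: clustered shared peaks in coding introns had support at 7 of 7, and those downstream of coding genes at 21 of 41 (51.2%). The clustered sites come from few loci, so their intervals are narrower than the independent loci allow.

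The number of tags moved with this support, and coding promoter sites had a higher median in replicate 1, 14 tags against 11 at shared peaks outside them. Of isolated sites with 16 or more tags in replicate 1, 33 of 33 at coding promoters had an endogenous peak, against 47 of 48 elsewhere. With 8 to 15 tags it was 21 of 23 against 73 of 82, and with 4 to 7 tags 18 of 23 (78.3%, 58.1% to 90.3%) against 40 of 66 (60.6%, 48.5% to 71.5%). At matched tags the isolated sites thus had overlapping intervals in each bin. Clustered sites with 16 or more tags had support at 24 of 26 at coding promoters (92.3%, 75.9% to 97.9%) against 18 of 29 elsewhere (62.1%, 44.0% to 77.3%). With 8 to 15 tags it was 11 of 15 (73.3%, 48.0% to 89.1%) against 12 of 29 (41.4%, 25.5% to 59.3%). With 4 to 7 tags it was 5 of 6 (83.3%) against 7 of 15 (46.7%). The share was thus higher at coding promoters in each clustered bin. The intervals overlapped in each, and these small bins cannot settle whether a difference remains at matched tags.

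Of the 14 sites without an endogenous peak, 7 were isolated and 7 clustered. Isolated ones included fbxc-36, an F-box gene, with 4 tags in each LIN-42::GFP replicate and summits 179 bp apart, and F21F3.7 with 5 and 4 tags. At egl-47, a G protein-coupled receptor gene of egg laying, both replicates held 5 tags. At cha-1, choline acetyltransferase, they held 7 and 5 tags with summits 5 bp apart. W10C6.2 with 9 tags in each, ZC487.3 with 5 and 4, and Y110A7A.2, named trf-2 in RefSeq, with 15 and 17 tags complete the isolated ones.

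Of these isolated sites, fbxc-36, F21F3.7, egl-47, ZC487.3 and cha-1 held 7 tags or fewer in both replicates, while W10C6.2 held 9 and Y110A7A.2 was above the medians of isolated sites. Absence from the endogenous list means that no peak was detected at this depth. Of the 8 sites with 4 or 5 tags in both replicates, 3 had endogenous support. The clustered sites without it were 3 of the 4 sites at Y32H12A.9 and 1 each at Y54F10AM.7, Y119C1B.3, Y116A8C.44 and F35C12.3. All of the last 4 genes had a second site that did overlap an endogenous peak. The most tags at an unsupported site were 32, in replicate 1 at Y119C1B.3 and in replicate 2 at F35C12.3. By region rather than by site, 3 of the 14 lay in annotated regions that carry an endogenous mark.

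Replicates of LIN-42::GFP ranked the sites alike but not closely. Raw tags in replicates 1 and 2, not scaled for depth, were within 2-fold of each other at 95 of 126 sites and at 66 of 79 isolated sites. Replicate 2 exceeded replicate 1 by more than 2-fold at 18 sites, and the reverse held at 13. Across sites the Spearman correlation of tags was 0.70 between the replicates (n = 126), 0.75 between replicate 1 and endogenous LIN-42 and 0.73 between replicate 2 and endogenous LIN-42 (n = 112). These are descriptions across sites, which share libraries and in part the same peaks. For isolated sites they were 0.67 (n = 79), 0.77 and 0.75 (n = 72). The largest false discovery rate that the caller gave a site was 0% in replicate 1 and 33.33% in replicate 2. It was 5% or less at 119 of the 126 sites. The sites above 5% in replicate 2 were among those with many tags. The rate was 33.33% at Y64H9A.1, 25% at both sites of Y102F5A.1 and 16.67% at Y95B8A.2. At fbxa-221 it was 11.11%, at haf-7 10% and at F35F10.10 6.25%.

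The genes closest to the sites were matched to RefSeq by name, and 100 of 105 matched. Of these, 91 were protein-coding there and 9 were pseudogenes, although the annotation of the sites calls them coding genes. The pseudogenes had 13 sites, 6 of them isolated and 10 with endogenous support. Some of the richest sites near a start site were among them. In the class of 1000 bp or less the 3 sites with most tags in replicate 1 were at pseudogenes. These were F35F10.10 (41 tags), Y64H9A.1 (32 tags) and R155.4 (29 tags). Y64H9A.1 on chromosome X held 32, 98 and 169 tags in replicates 1 and 2 and the endogenous list, in peaks of 879, 1022 and 985 bp whose summits lay within 9 bp. Pseudogenes resemble other genes in sequence, and the part that misassigned reads have in these piles was not tested beyond the authors' use of uniquely aligned reads.

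To describe the genes by function, 46 closest genes of known role were sorted into 9 lists. Of these, 44 had a site, and the other 2, the chemoreceptor gene srz-3 and the ion pump gene catp-1, lay next to annotated regions that are the main region of no site. The 44 genes had 52 sites, of which 49 overlapped an endogenous peak, against 112 of all 126 sites (88.9%) and 78.2% of all shared peaks. With so high a share over all sites, full endogenous support in a short list does not set that list apart. Since genes entered the lists for being closest to an annotated region, these counts describe the lists and show no preference for a function.

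All 8 transcription factors and regulators had a single site with endogenous support, 6 of them isolated. Their sites lay in every distance class, 3 within 1000 bp, 3 up to 2000 bp and 2 beyond. At hlh-11, a basic helix-loop-helix factor, the peak 660 bp from the start site held 14, 11 and 14 tags, with summits within 4 bp. At dve-1, which encodes a homeobox protein that acts under mitochondrial stress, 26, 25 and 30 tags lay 1421 bp away with summits within 5 bp. At nsy-7, which sets the asymmetry of the AWC olfactory neurons, 22, 19 and 17 tags lay 1092 bp away with summits within 31 bp. Tags at these 3 sites were within 2-fold between the replicates.

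At pha-4, a forkhead gene that specifies the pharynx, the site lay 496 bp from the start site and had its summits within 2 bp and peaks of 8, 8 and 5 tags, the last being the smallest that the endogenous list holds. The elongation factor gene ell-1 had 12, 13 and 17 tags at 1356 bp, and ssl-1, a Snf2-type ATPase gene, had 10, 4 and 5 tags at 2422 bp. Among these genes the raw tags of the replicates differed most at unc-30, a Pitx relative needed in GABA neurons. Its peaks, 3023 bp from the start site, held 41, 7 and 86 tags, the replicate 1 and 2 summits lay 342 bp apart, and the endogenous peak was 1133 bp long. The site at unc-30 was isolated and had peaks of 507 bp in replicate 1 and 312 bp in replicate 2.

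All 5 protein kinase genes had a site with endogenous support, and 4 of these lay beyond 2000 bp. At kin-20, the casein kinase 1 gene related to Doubletime, the kinase that acts on PERIOD in the fly clock, the peaks 2579 bp away held 5, 19 and 14 tags (chromosome X). Its 3 summits fell within 16 bp, while raw tags differed by more than 2-fold between the replicates. The protein kinase D genes dkf-1 and dkf-2 had 6, 4 and 7 tags at 602 bp and 21, 22 and 28 tags at 6584 bp. At dapk-1, a death-associated protein kinase gene, 27, 39 and 44 tags lay 3004 bp away, and at tlk-1, a Tousled-like kinase gene, 11, 11 and 7 tags lay 4871 bp away.

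In the list of ion channels, neurotransmission and G protein signaling, 5 of 8 sites were within 1000 bp, all 8 were isolated and 6 had endogenous support. Besides lgc-42, the channel gene lgc-37 had 6, 8 and 6 tags. Of the RGS genes, which encode regulators that switch off G proteins, rgs-8.1 had 5, 6 and 10 tags and rgs-8.2 had 16, 15 and 21 tags. The stomatin gene sto-4 had 6, 14 and 10 tags, and hot-2, a homolog of the olfactory signaling gene odr-2, had 14, 17 and 18. The 2 sites without endogenous support, at cha-1 and egl-47, were the ones beyond 2000 bp.

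Chemoreceptor genes, which encode the G protein-coupled receptors of sensory neurons, had 5 sites at 4 genes, all with endogenous support and none beyond 2000 bp. At srg-30 the peaks held 20, 14 and 19 tags with summits within 2 bp. At sre-46 they held 10, 16 and 28 tags, and at sre-47 18, 25 and 74 tags. The sites of srab-12, at 251 and 1473 bp, were small, with 10, 13 and 9 tags and 8, 6 and 13 tags. Only sre-47 stood out among them, by an endogenous peak of 1205 bp.

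**Figure D5:**
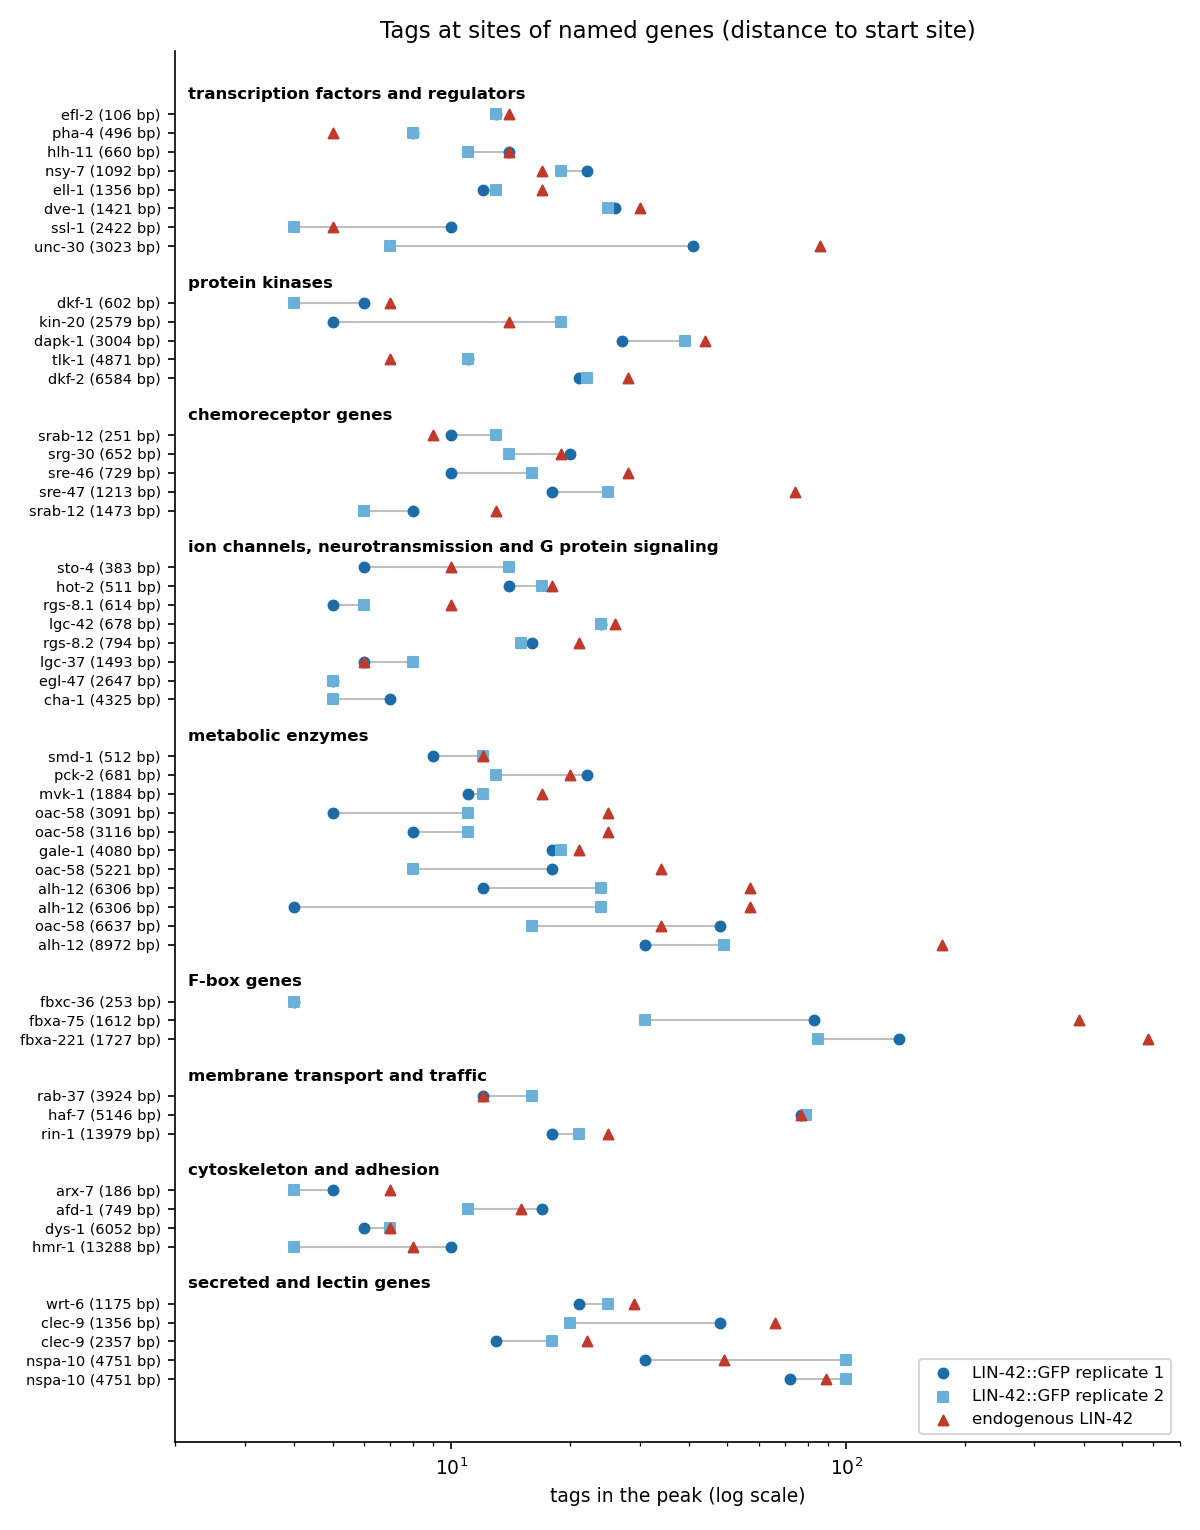
Tags (horizontal, log scale) in the peak of LIN-42::GFP replicate 1 (circles), LIN-42::GFP replicate 2 (squares) and endogenous LIN-42 (triangles) at the 52 sites of the 9 gene lists, with the distance to the start site after each gene name. Grey lines join the replicates and a missing triangle means no endogenous peak, as at egl-47, cha-1 and fbxc-36; the F-box genes fbxa-75 and fbxa-221 hold the most endogenous tags of these sites.

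Metabolic enzyme genes had 11 sites at 6 genes, all with endogenous support, but 7 of the 11 were the clustered sites of oac-58 and of alh-12, an aldehyde dehydrogenase gene. The 3 sites of alh-12 spread over 3659 bp of chromosome III. The other genes had a single site each. At smd-1, S-adenosylmethionine decarboxylase of polyamine synthesis, the peaks held 9, 12 and 12 tags 512 bp from the start site. At gale-1, the UDP-galactose epimerase, they held 18, 19 and 21 tags with summits within 2 bp. The gluconeogenic gene pck-2 had 22, 13 and 20 tags in broad peaks of 585, 376 and 479 bp, and mvk-1, the mevalonate kinase of the isoprenoid pathway, had 11, 12 and 17.

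In the transport and traffic list, haf-7, a half-molecule ABC transporter gene, had the isolated site with most tags of the lists in both replicates. It held 77, 79 and 77 tags, in peaks of 403, 400 and 400 bp with summits within 6 bp (chromosome V). The Rab GTPase gene rab-37 had 12, 16 and 12 tags. Among cytoskeleton and adhesion genes, afd-1, the afadin gene, had 17, 11 and 15 tags with summits within 2 bp, and dys-1, the dystrophin gene, had 6, 7 and 7 tags 6052 bp from its start site.

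Secreted and lectin genes had 5 sites, all with endogenous support and 1 of them isolated. The hedgehog-related gene wrt-6 had an isolated site 1175 bp away with 21, 25 and 29 tags and summits within 3 bp. The C-type lectin gene clec-9 and the nematode-specific peptide gene nspa-10 had 2 clustered sites each. At nspa-10 a single replicate 2 peak of 100 tags covered replicate 1 peaks of 31 and 72 tags, whose endogenous peaks held 49 and 89. Of 3 F-box genes, fbxa-75 had 83, 31 and 389 tags and fbxa-221 had 136, 85 and 580 tags, both in clusters.

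Most of the sites with the most tags, counted over the whole peak, lay in runs. The pseudogene Y7A5A.11 on chromosome X had sites of 136, 49 and 369 tags and of 189, 56 and 418 tags, spread over 3539 bp. R57.2, named dbd-18 in RefSeq, had sites of 120, 106 and 445 tags and of 115, 99 and 445 tags, which share an endogenous peak. A single endogenous peak of 4706 bp and 580 tags covered both the site of fbxa-221 and that of Y73B3A.5, named elk-2 in RefSeq. In replicate 2 the most tags were the 165 in a peak of 1824 bp that covered both sites of Y102F5A.1. Among sites over 100 tags in replicate 1, the isolated exception was Y95B8A.2, a broad site with 112, 88 and 250 tags in peaks of 1257, 1284 and 1287 bp.

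Most genes had a single site: 89 of 105 had 1, 13 had 2, and only oac-58, Y32H12A.9 and alh-12 had 3 or more. The sites of Y32H12A.9 spread over 4640 bp of chromosome III, and the isolated one, 4436 bp from the start site, was the only one of its 4 with endogenous support. Sites lay on all 6 chromosomes. They were 27 of the 61 shared peaks on X, 27 of 89 on V, 21 of 71 on III, 19 of 78 on I, 19 of 56 on IV and 13 of 40 on II. All 27 sites on X had an endogenous peak, and 10 of them were clustered. On chromosome II 10 of 13 sites were within 1000 bp of a start site, whereas on IV 2 of 19 were. Endogenous support and distance were not counted by chromosome over all shared peaks, so these counts describe the sites and show no preference for a chromosome.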

How the data were processed

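The 3 ChIP samples and 2 inputs came from the single strain named in the labels. Bowtie2 served the authors for alignment to ce10, and MACS 1.4.2 for peaks, run separately on every library with a p-value limit of 1e-05. Per the file headers, replicate 1 had 833169 aligned tags, of which 38236 were kept at a single tag per position, replicate 2 had 4334100 and 43991, and endogenous LIN-42 had 2268716 and 122089. The headers name an input control for each LIN-42::GFP list and none for the endogenous list. The deposited count of tags per peak is not normalized. The deposited score is the −log10 of the caller's p-value multiplied by 10. The deposited fold enrichment is the ratio of the summit to the background that MACS estimated, and was compared only between clustered and isolated sites. The false discovery rate in the deposited LIN-42::GFP lists is in percent. All columns of the lists were mapped to a sample (0 left unused for want of a map).

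Each shared peak took the class, gene and distance of the annotated region with the largest overlap. The annotation gives a signed distance to the closest gene, negative at 12 sites, with no stated meaning for the sign, and it entered only as an alternative. Shares have Wilson intervals and medians exact binomial intervals, both at 95%. No p-value was computed: each list is 1 library and sites are not replicates. The LIN-42::GFP replicates are described by the study as biological replicates from separate extracts. The members, gene lists and naming rule were chosen with earlier results of these data known, and the tag bins after their values were seen. Named genes are those of the 10 nearest sites, of the 3 sites with most tags per class and list, of the 9 gene lists, of sites without an endogenous peak, of the 5 largest summit offsets, with 3 or more sites, and next to the distance limits; any other was chosen after its values were seen. Gene names and biotypes come from RefSeq WBcel235, whose coordinates are not used. Overlap, interval and summit calculations were tested on simulated data with planted sites. Calculations ran in Python 3.11.15 with SciPy 1.17.1, pandas 2.3.3 and NumPy 2.4.6, and plots were drawn with Matplotlib 3.10.9. Genome sequence was not used here, so promoter motifs were not searched.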

Additional observations from a re-analysis of the deposited data

How the results depend on the processing

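Overlap, thresholds, counting unit and distance were each changed in turn. Of 88 counts and shares under the alternatives, 81 kept within 1.5 times the main count or within the interval of the main share, and 7 did not. Using the distance to the closest gene only moves sites between classes, so the 126 sites and their share of 88.9% could not change there. Several other alternatives keep a part of the same sites, so the tally does not count independent checks. With clustered sites left out there were 79 sites in place of 126, 14 in place of 27 above 1000 and up to 2000 bp and 27 in place of 52 beyond 2000 bp. With the MACS p-value limited to 1e-10 for LIN-42::GFP, 32 sites lay beyond 2000 bp, and 95.3% of all sites and 95% of those above 1000 and up to 2000 bp had an endogenous peak. Where overlaps between the LIN-42::GFP replicates of under 50% of either peak were not counted, 97.3% of sites at 1000 bp or less had an endogenous peak. The overlap asked of the endogenous peak stayed at 1 bp or more. Of 213 medians, 207 stayed within their interval. The 6 others were all beyond 2000 bp: 26.5 tags in replicate 2 at that MACS p-value and, with clustered sites left out, 17 endogenous tags, lengths of 149, 160 and 119 bp in replicate 1, replicate 2 and the endogenous list, and an offset of 6 bp between replicates. Without replicate 1 the endogenous share was 85.4% of 137 replicate 2 peaks, and without replicate 2 it was 85.3% of 136 replicate 1 peaks. The annotated regions derive from both replicates, so neither setting left a replicate out of the choice of members. Only 6 of the 137 replicate 2 peaks overlapped no replicate 1 peak, and 9 of the 136 replicate 1 peaks overlapped no replicate 2 peak. These 2 shares are therefore no separate check. No paired analysis was possible because no group comparison was tested. The planned look at promoter sequences was not run. At 4 or 5 tags per peak, depth limits what absence from a list can mean.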
